A study of Mus musculus with 16 samples.

Results

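Costimulatory and checkpoint ligands are surface proteins by which a cell raises or restrains the T cells and phagocytes that touch it. The 9 genes described here were chosen by their symbols, Cd274, Pdcd1lg2, Cd80, Cd86, Cd40, Cd47, Sirpa, Icosl and Havcr2, and all 9 were found among the 54532 genes of each table. They were read by RNA-seq in pulmonary ECs (endothelial cells), isolated from digested mouse lung with magnetic beads as cells that lack CD45 and carry CD31. Below, ECs stands for this bead fraction, which also held RNA of leukocyte genes. In the first experiment 8-week-old male WT C57/BL6J mice were instilled intratracheally with saline (n = 4) or with LPS at 10 mg/kg (n = 6), LPS being lipopolysaccharide from the outer membrane of bacteria. In the second experiment Fgfr1 loxP/loxP littermates (n = 3, the libraries labelled wt) and Fgfr1 iΔEC/iΔEC mice (n = 3, labelled cko) all received 2 mg/kg LPS, so no group of that experiment was without LPS. The study states that both genotypes were injected with tamoxifen before the LPS. The iΔEC/iΔEC mice carry a tamoxifen-inducible Cre recombinase under the VE-cadherin promoter, which restricts the deletion of Fgfr1 to cells that use this promoter, and the study calls them adult, with no exact age in the sources used here. All 4 groups were sampled at 24 h. Each library is labelled as a separate sample, and p-values measure the spread between these samples.

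T cells need a costimulatory signal beside antigen. CD80 and CD86 give it through CD28 and are also bound by the inhibitory receptor CTLA4, ICOSL gives it through ICOS, and CD40 on the presenting cell receives CD40 ligand from activated T cells and signals through TRAF proteins to NF-kB. PD-L1, encoded by Cd274, and PD-L2, encoded by Pdcd1lg2, bind PD-1 on T cells and restrain them. CD47, found on nearly all cells, binds SIRPα on phagocytes and inhibits engulfment through the phosphatases SHP-1 and SHP-2. TIM-3, encoded by Havcr2, is an inhibitory receptor of T cells that myeloid cells also carry. Endothelial cells are known to carry CD47, ICOSL, CD40 and PD-L1, whereas CD80, CD86 and PD-L2 are typical of antigen-presenting cells and SIRPα of myeloid cells.

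On GRCm38 the genes of both PD-1 ligands lie beside each other on the plus strand of chromosome 19, Cd274 (ENSMUSG00000016496) at chr19:29367455-29388095 and Pdcd1lg2 (ENSMUSG00000016498) at chr19:29410919-29471157, with 22823 bases between them. Each overlaps an annotated antisense gene, AC119228.1 and A930007I19Rik respectively, and the strandedness of the libraries is not given in the sources used here, so reads of the gene and of its antisense partner cannot be told apart. Cd80 (ENSMUSG00000075122, chr16:38455561-38496335, plus strand), Cd86 (ENSMUSG00000022901, chr16:36603869-36666081, minus strand) and Cd47 (ENSMUSG00000055447, chr16:49800533-49915010, plus strand) are on chromosome 16. Cd40 (ENSMUSG00000017652, chr2:165055627-165072948) and Sirpa (ENSMUSG00000037902, chr2:129592835-129632228) are on the plus strand of chromosome 2. Icosl (ENSMUSG00000000732, chr10:78069302-78083913) and Havcr2 (ENSMUSG00000020399, chr11:46454935-46481255) are on the plus strands of chromosomes 10 and 11.

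The 250 bases upstream of the RefSeq start (GRCm38.p6) were found for 6 of the 9 genes, and Cd86, Cd40 and Sirpa were not matched. Both strands were searched for the STAT pattern TTCNNNGAA, for GAAANNGAAA, a pair of IRF half-sites, and for the NF-kB consensus. The first 2 patterns were found in none of the 6 genes, and they are in 7.02% and 2.98% of all 32851 upstream windows of the same length. The NF-kB consensus was found in Icosl, from base -111 to -102 before the start, and in Pdcd1lg2, from -244 to -235, and 23.2% of all windows hold it. Each of these matches reads as the consensus on both strands. The windows are shown for the neighbouring PD-1 ligands and for Icosl, with capitals at the NF-kB match. All are on the plus strand, at chr19:29367188-29367437 (Cd274), chr19:29410669-29410918 (Pdcd1lg2) and chr10:78069118-78069367 (Icosl).
Cd274: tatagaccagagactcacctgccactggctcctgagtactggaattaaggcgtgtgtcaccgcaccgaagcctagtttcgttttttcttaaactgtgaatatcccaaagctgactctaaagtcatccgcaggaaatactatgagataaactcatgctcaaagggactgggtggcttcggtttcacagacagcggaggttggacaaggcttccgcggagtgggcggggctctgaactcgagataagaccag
Pdcd1lg2: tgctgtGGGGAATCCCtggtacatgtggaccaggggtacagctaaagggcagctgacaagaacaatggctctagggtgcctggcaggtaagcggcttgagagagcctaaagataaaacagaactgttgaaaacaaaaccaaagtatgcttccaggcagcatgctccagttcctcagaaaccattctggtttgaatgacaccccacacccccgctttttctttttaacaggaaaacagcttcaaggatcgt
Icosl: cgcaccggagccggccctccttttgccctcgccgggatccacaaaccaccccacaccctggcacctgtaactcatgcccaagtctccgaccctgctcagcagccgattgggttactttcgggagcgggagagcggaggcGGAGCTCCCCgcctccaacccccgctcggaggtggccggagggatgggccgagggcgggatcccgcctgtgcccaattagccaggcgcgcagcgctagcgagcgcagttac

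Expression was deposited as FPKM, fragment numbers corrected for gene length and library size, which allows levels to be compared between genes. The read number on genes was 13478726 to 18807007 in the saline libraries, 17840221 to 19043015 in the LPS, 15969575 to 17002788 in the loxP/loxP and 16642177 to 16943522 in the iΔEC/iΔEC libraries. In saline ECs the mean FPKM was highest for Cd47 at 59.3 ± 7.38 (SD, n = 4), followed by Sirpa at 14.6 ± 3.31, and the saline ranges of these genes overlapped neither each other nor the next gene. Cd274 (8.78 ± 2.60) and Cd40 (8.44 ± 1.55) overlapped each other and lay above Icosl (4.52 ± 1.72). Havcr2, Cd80, Cd86 and Pdcd1lg2 had a mean of 1.36, 0.659, 0.483 and 0.336 FPKM, and each overlapped the next in this order. The last of these levels rest on few reads, 5 to 19 per saline library for Pdcd1lg2, 18 to 43 for Cd86 and 14 to 96 for Cd80.

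In LPS ECs the order changed at the top. Sirpa (99.6 ± 27.6 FPKM, n = 6), Cd274 (69.9 ± 33.2) and Cd47 (68.4 ± 9.91) had overlapping ranges and lay above Havcr2 (20.2 ± 6.16), Icosl (17.1 ± 3.01), Cd80 (11.8 ± 4.59) and Cd40 (10.8 ± 2.91), each of which overlapped the next. Cd86 (4.19 ± 1.30) and Pdcd1lg2 (3.53 ± 1.60) were lowest and overlapped each other. The members thus spread over a range of levels in both groups, and both genes with the lowest mean in saline ECs also had the lowest mean in LPS ECs.

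**Figure D1:**
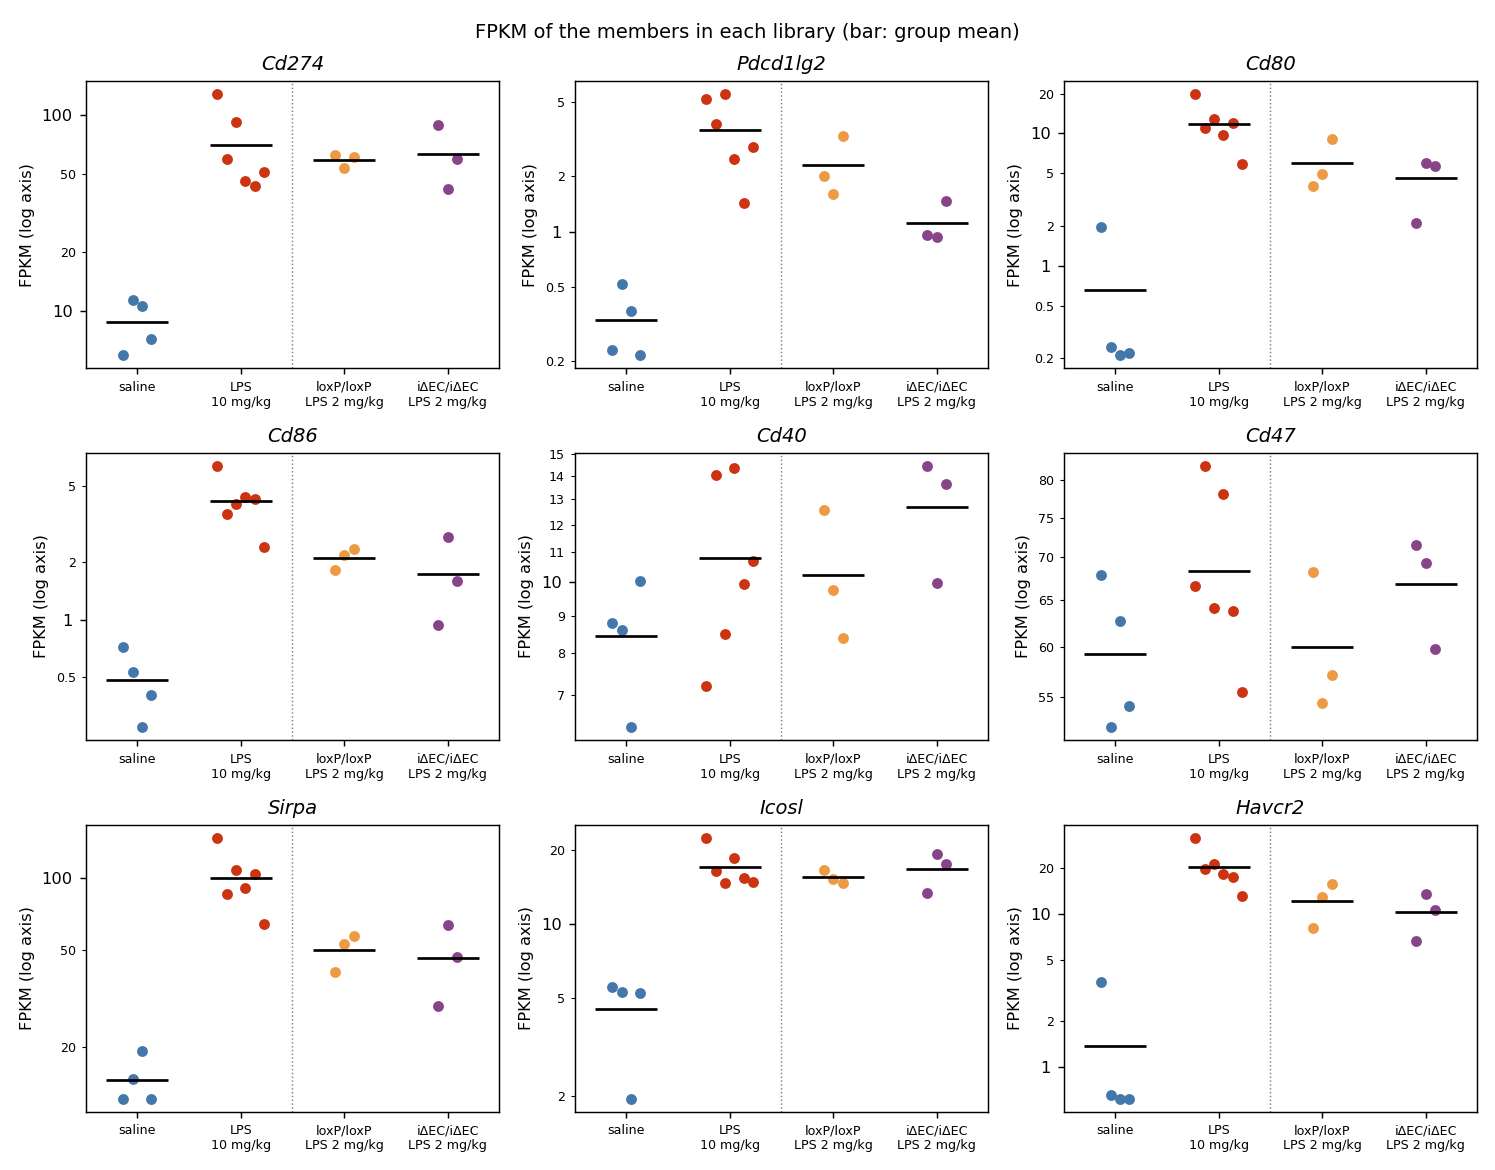
FPKM (log axis, own range in each panel) of the 9 genes in the 16 libraries, with a point per library, a bar at the group mean and a dotted line between the experiments, whose tables were scaled separately. The saline and LPS points are apart in 7 panels and mix in those of Cd40 and Cd47, and loxP/loxP and iΔEC/iΔEC are apart for Pdcd1lg2.

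To learn how the RNA of the 9 genes in the bead fraction differs after LPS, the 6 LPS libraries were compared with the 4 saline libraries. Of the 9 genes, 7 were higher after LPS, Havcr2, Cd80, Cd274, Sirpa, Cd86, Icosl and Pdcd1lg2, and 0 were lower. Their differences ran from 3.79-fold (Icosl) to 18.0-fold (Cd80) in mean FPKM, and the log2 fold changes below, on FPKM + 1, understate those of genes at low levels. Cd40 and Cd47, the other two, did not pass. The test was limma on log2(FPKM + 1) across the 14893 genes whose mean reached 0.5 FPKM, and a call needed an adjusted p (Benjamini-Hochberg) of 0.05 or less and a log2 fold change of 1 or more in size. By this rule 11.9% of all genes tested were higher and 6.79% lower. The groups did not overlap for 7 of the 9 members and for 39.4% of all genes tested. The median log2 fold change was 1.78 over the members, the value of Cd86, and 0.01 over all genes. The members were chosen with earlier results of these data known. Pdcd1lg2 and Cd86 had a saline mean under the filter of 0.5 FPKM, so they entered the test through their LPS values. With no filter on low values the same 7 members were called higher, as were 1736 of 36342 genes. In bulk RNA a change in the share of cells that carry a gene and a change of its RNA per cell cannot be told apart.

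The inhibitory ligand Cd274 measured 5.97, 11.4, 10.6 and 7.20 FPKM in saline 1 to 4, and 43.5 (lowest), 55.3 (median) and 127 (highest) FPKM in the LPS libraries. Every LPS library was above every saline library. The log2 fold change was 2.78 (SE 0.31, limma adjusted p = 3.61e-05; exact permutation p = 0.00952, two-sided, the lowest possible with 4 and 6 libraries, which the other 6 genes called higher also had). Its neighbour Pdcd1lg2 measured 0.230, 0.522, 0.374 and 0.216 FPKM in saline 1 to 4, and 1.42, 3.31 and 5.51 FPKM as the lowest, median and highest LPS library. These groups were apart as well, with a log2 fold change of 1.69 (SE 0.25, limma adjusted p = 0.000289). It was 2.98 with a pseudocount of 0.1 and 3.25 with limma-voom, and the fold of mean FPKM was 10.5. Within a library Cd274 exceeded Pdcd1lg2 by a log2 ratio of 4.36 ± 0.18 in saline and 4.28 ± 0.35 in LPS ECs, computed on FPKM + 0.1. This ratio did not pass the test (difference -0.07, two-sided exact permutation p = 0.714 after adjustment over 3 ratios). With a pseudocount of 1, which is above every saline level of Pdcd1lg2, the difference of the ratio was 1.09 and passed it (adjusted exact p = 0.00952).

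Cd80, a ligand of CD28 and CTLA4, measured 1.96 FPKM in saline 1 and 0.244, 0.212 and 0.220 FPKM in saline 2 to 4. In LPS ECs its lowest, median and highest values were 5.87, 11.4 and 19.8 FPKM, all above saline. The log2 fold change was 2.99 (SE 0.32, limma adjusted p = 3.01e-05). Saline 1 alone set the saline mean, and without it the fold of mean FPKM was 52.5 in place of 18.0. Cd86, which binds the same receptors, measured 0.723, 0.531, 0.275 and 0.402 FPKM in saline 1 to 4 and 2.42 to 6.41 FPKM in LPS ECs (median 4.16). Its groups were apart, with a log2 fold change of 1.78 (SE 0.19, limma adjusted p = 2.87e-05), or 2.88 with a pseudocount of 0.1 and 3.15 with limma-voom, and a fold of mean FPKM of 8.68.

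Cd80 rose more than Cd86 within the libraries. The log2 ratio of Cd80 to Cd86 was -0.12 ± 0.99 in saline and 1.44 ± 0.21 in LPS ECs, a difference of 1.56 (two-sided exact permutation p = 0.0286, 0.0429 adjusted over 3 ratios). The groups overlapped through saline 1, at 1.32, whereas saline 2 to 4 lay between -0.87 and -0.27 and the LPS libraries between 1.13 and 1.63. The call did not hold when saline 2, 3 or 4 (adjusted exact p = 0.107, where 0.0714 is the lowest for a lone ratio) or LPS 1, 2, 3 or 5 (0.0714) was left out, and without saline 1 the difference was 2.04 (adjusted exact p = 0.0357). In the second experiment, where all mice had received LPS, the ratio was 1.09 to 1.90 in loxP/loxP and 1.08 to 1.78 in iΔEC/iΔEC libraries.

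**Figure D2:**
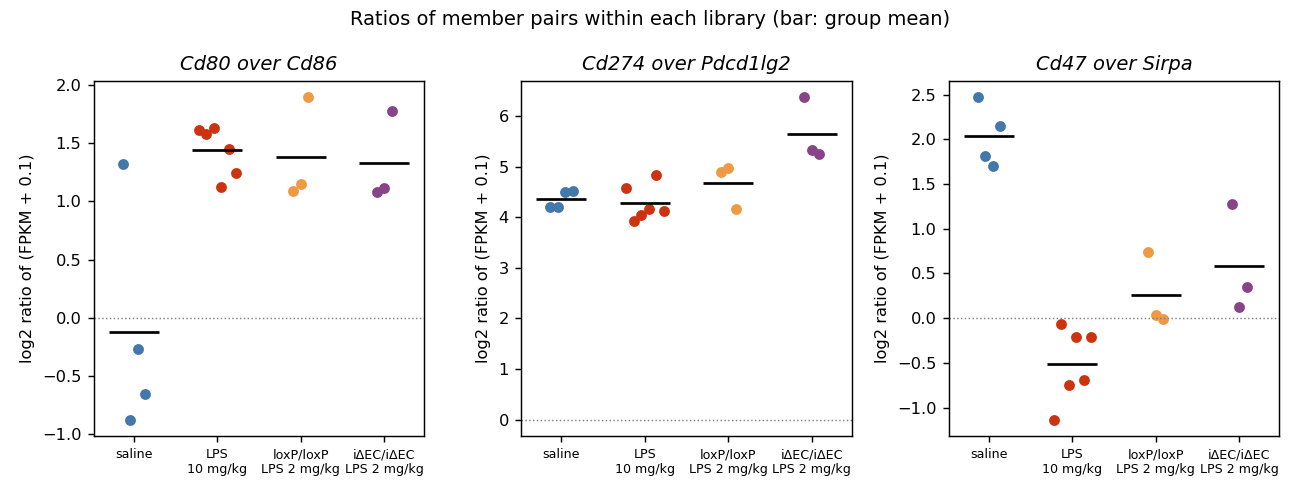
Log2 ratio of Cd80 to Cd86, of Cd274 to Pdcd1lg2 and of Cd47 to Sirpa within each library, on FPKM + 0.1, with a bar at the group mean and a dotted line at equal levels. Saline 1 stands with the LPS libraries for Cd80 over Cd86, the saline and LPS means of Cd274 over Pdcd1lg2 are 4.36 and 4.28, and Cd47 over Sirpa is above 0 in the 4 saline libraries and below 0 in the 6 LPS libraries.

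Icosl, the ligand of ICOS, measured 5.56, 5.32, 1.95 and 5.26 FPKM in saline 1 to 4 and 14.8, 15.97 and 22.5 FPKM as the lowest, median and highest LPS library. All LPS libraries were above saline, with a log2 fold change of 1.77 (SE 0.22, limma adjusted p = 9.02e-05). Cd40, the receptor of CD40 ligand, measured 8.79, 8.59, 6.33 and 10.1 FPKM in saline 1 to 4 and 7.19, 10.3 and 14.4 FPKM as the lowest, median and highest LPS library. The groups overlapped, and the log2 fold change of 0.30 (95% interval -0.12 to 0.72) did not pass the test (limma adjusted p = 0.208, exact permutation p = 0.2). It passed the test when the libraries were scaled on the list of endothelial genes described below (log2 fold change 1.07).

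Sirpa measured 12.2, 14.7, 19.2 and 12.2 FPKM in saline 1 to 4 and 64.0, 96.8 and 146 FPKM as the lowest, median and highest LPS library. The groups were apart, with a log2 fold change of 2.67 (SE 0.21, limma adjusted p = 4.16e-06). Its partner Cd47 measured 68.0, 52.2, 62.7 and 54.1 FPKM in saline and 55.4, 65.4 and 82.0 FPKM as the lowest, median and highest LPS library. These groups overlapped, and the log2 fold change of 0.20 (95% interval -0.10 to 0.50) did not pass the test (limma adjusted p = 0.243, exact permutation p = 0.143). Its direction depended on the scaling, since it was -0.31 after quantile normalization (adjusted p = 0.00921), near 0 with total reads and 1.05, a call, with the endothelial genes. The log2 ratio of Cd47 to Sirpa, in which a scaling factor of the library cancels but for the pseudocount, went from 2.03 ± 0.35 in saline to -0.51 ± 0.41 in LPS ECs, a difference of -2.54 with groups apart (two-sided exact permutation p = 0.00952, 0.0286 adjusted over 3 ratios). Without saline 2, 3 or 4 the difference was -2.65 to -2.51 with an adjusted exact p of 0.0714, the lowest that 3 against 6 libraries allow when 1 of 3 ratios passes. The ratio lay at -0.01 to 0.74 in loxP/loxP and 0.12 to 1.27 in iΔEC/iΔEC libraries, which had a lower dose of LPS. Cd47 differed little between saline and LPS ECs, so this ratio mostly repeats the level of Sirpa. Cell content does not cancel in it.

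Havcr2 measured 3.56 FPKM in saline 1 and 0.648, 0.617 and 0.616 FPKM in saline 2 to 4, and its lowest, median and highest LPS values were 13.04, 18.99 and 31.4 FPKM. The groups were apart, with a log2 fold change of 3.28 (SE 0.31, limma adjusted p = 1.38e-05). This was above that of Cd80 at a pseudocount of 1, and below it at 0.1 (4.17 and 4.44) and with limma-voom (4.43 and 4.95). The fold of mean FPKM was 14.8, or 32.2 without saline 1. Within the LPS group 1 library recurred at the top. LPS 1 was the highest of 6 in Cd274, Sirpa, Havcr2, Cd80, Cd86 and Icosl, and the lowest in Cd40. It also had the highest Ptprc (52.7 FPKM against 22.1 to 43.4), the highest summed leukocyte (1554 against 641 to 1408) and macrophage markers (966 against 417 to 861), and the lowest Pecam1 (234 against 318 to 444) and summed endothelial markers (1207 against 1832 to 2899). The part of the cell content in its values was not tested.

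**Figure D3:**
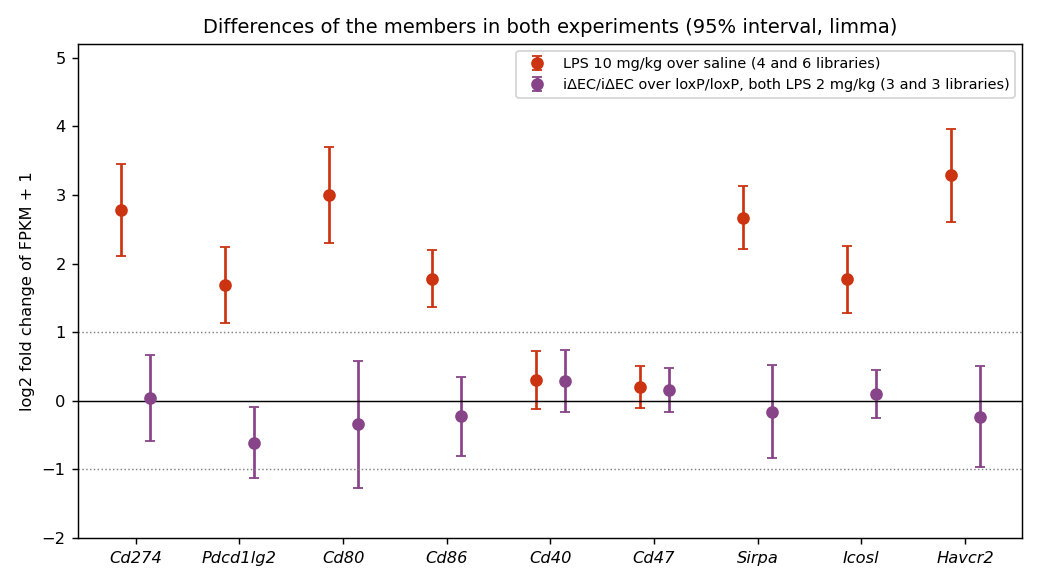
Log2 fold change of FPKM + 1 with its 95% interval from limma, for LPS over saline (4 and 6 libraries) and for iΔEC/iΔEC over loxP/loxP (3 and 3 libraries), with dotted lines at 1 and -1. In LPS over saline 7 intervals lie above 1, and the intervals of Cd40 and Cd47 include 0. In the second experiment the interval of Pdcd1lg2 alone leaves out 0, before adjustment.

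Marker genes of cell types moved with these differences. Csf1r, the receptor of macrophage colony-stimulating factor and the most abundant gene of the 8 macrophage markers, had a mean of 7.13 FPKM in saline and 211 FPKM in LPS ECs, and 6 of the 8 were higher. The summed FPKM of this list was 19.6 to 34.1 in saline and 417 to 966 in LPS libraries. All 6 leukocyte markers were higher (Coro1a, an actin-binding protein, 47.3 to 447 FPKM, summed level 76.5 to 227 and 641 to 1554), as were 6 of the 8 neutrophil markers (S100a9, 259 to 1864 FPKM, summed level 71.4 to 1382 and 1285 to 6628). Ptprc, which encodes the CD45 used to deplete leukocytes, had 6.97 ± 3.13 FPKM in saline and 34.6 ± 11.4 FPKM in LPS ECs. Of the 10 endothelial markers 5 were lower and 0 higher (most abundant Cldn5, a tight junction protein, 1533 and 1058 FPKM), and their summed level was 2883 to 5036 in saline and 1207 to 2899 in LPS libraries. The endothelial markers were thus present in all libraries, together with leukocyte genes. The part of these cells in the differences of the ligands was not tested.

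Other lists moved less or the other way. Of the 6 B cell markers 5 were lower (Cd79a, of the B cell receptor, 54.6 to 16.7 FPKM, summed level 29.6 to 199 and 22.1 to 68.9). Of the dendritic cell markers 4 of 8 were tested, and Itgax, which encodes the CD11c that macrophages also carry, was higher (2.64 to 27.7 FPKM). Clec9a, a receptor of cross-presenting dendritic cells and the most abundant of them over both groups together, had 33.6 and 15.9 FPKM. Its limma adjusted p was 0.00857, but its log2 fold change of -0.997 was under the limit of 1 in size, so it was not called. The untested Flt3, Xcr1, Cd209a and Siglech had means of 0.321, 0.0641, 0.774 and 0.114 FPKM in saline ECs. In LPS ECs these were 0.150, 0.0565, 0.150 and 0.0256 FPKM. The summed level of the dendritic list, 37.7 to 65.9 and 49.6 to 66.2, thus rested almost wholly on the tested genes. None of the 6 tested T and NK cell markers passed the test (Lck, a T cell kinase, 2.46 and 1.17 FPKM, summed level 3.17 to 12.9 and 2.80 to 9.69). Of the epithelial markers 7 were tested, with 1 higher and 2 lower (Sftpc, a surfactant protein, 1316 and 280 FPKM, summed level 1011 to 2658 and 228 to 835). None of the 6 tested fibroblast markers was called (Col3a1, a collagen, 15.4 and 8.51 FPKM, summed level 36.1 to 62.4 and 19.3 to 45.8). Col1a1, Col1a2, Col3a1 and Tcf21 had a limma adjusted p of 0.0127 to 0.0262. Their log2 fold changes of -0.91 to -0.61 were under the limit of 1 in size. Of 7 mural markers 2, Pdgfrb (15.4 to 7.04 FPKM) and Notch3 (7.12 to 2.60 FPKM), were lower. The most abundant mural gene, the smooth muscle actin Acta2, did not pass (27.1 and 31.2 FPKM, list sum 30.4 to 132 and 37.8 to 71.8). Both tested erythroid markers were higher (Hba-a1, a globin with near-identical copies, 6.97 and 19.2 FPKM, summed level 5.44 to 22.8 and 19.3 to 65.8). No marker was at 0 in all saline or all LPS libraries.

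**Figure D4:**
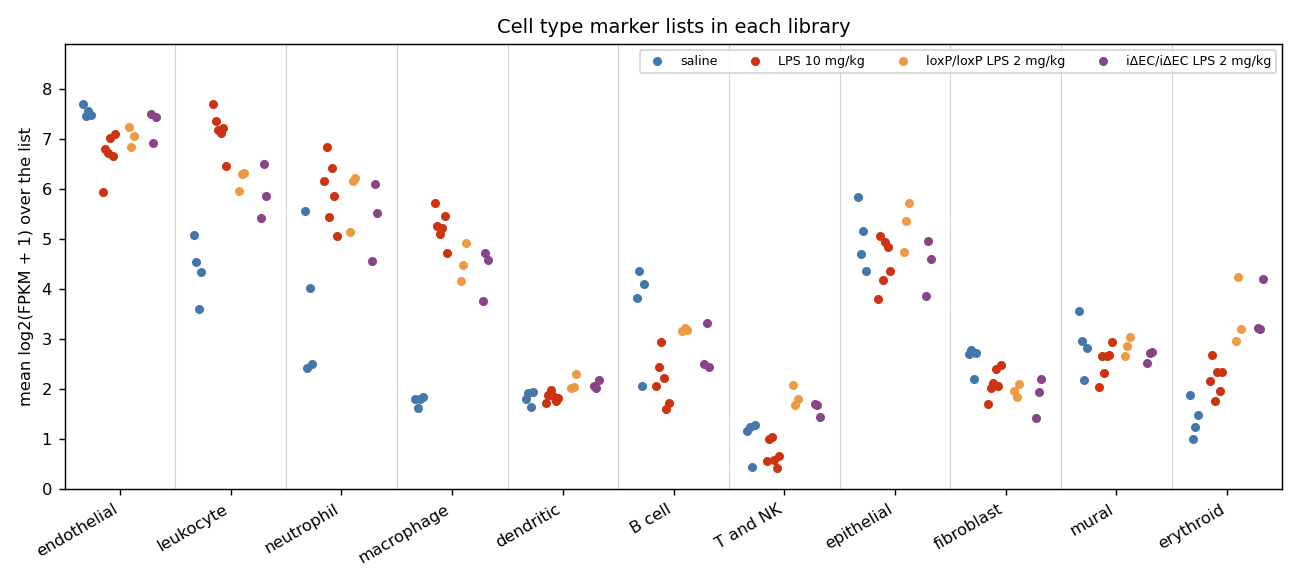
Mean log2(FPKM + 1) over each of 11 lists of cell type markers in the 16 libraries, with a point per library. The leukocyte and macrophage lists are higher in every LPS library than in every saline library, the endothelial list is lower in every LPS library, and saline 1 stands among the LPS libraries for the neutrophil list.

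The ligands were also set against Ptprc within each library, which itself was higher after LPS. For Cd80 and Havcr2 the log2 ratio to Ptprc was higher in every LPS library than in every saline library, by 2.10 and 1.82 in the mean, and 1.77% of all genes tested were apart in this direction. For Cd40 and Cd47 it was lower in every LPS library, by -2.02 and -2.14, as it was for 75.6% of all genes. For Cd274 (0.56), Pdcd1lg2 (0.64), Cd86 (0.54), Sirpa (0.40) and Icosl (-0.35) the groups overlapped. Set against Pecam1, which encodes CD31 and had 400.3 ± 81.5 FPKM in saline and 358 ± 76.8 FPKM in LPS ECs, the 7 genes called higher were apart by 2.16 (Icosl) to 4.61 (Cd80), while Cd40 (0.50) and Cd47 (0.37) overlapped. By this ratio 22.9% of all genes were apart and higher and 7.63% apart and lower. Pecam1 differed little between the groups, so this ratio mostly repeats the levels of these 7 genes. These ratios were not tested.

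Among the 12 libraries of mice given LPS the ratio of Sirpa to Ptprc had the smallest spread of the 9 ligand ratios to Ptprc. Its log2 value ran from 1.31 to 1.76, with a pooled SD within groups of 0.14, against 0.68 for its ratio to Pecam1. Havcr2 (SD 0.18 over Ptprc and 0.72 over Pecam1), Cd86 (0.22 and 0.72) and Cd80 (0.30 and 0.88) also varied less beside Ptprc. Cd40 did the reverse, with an SD of 0.78 beside Ptprc and 0.18 beside Pecam1, as did Cd47 (0.52 and 0.32). The log2 levels alone had an SD of 0.41 for Sirpa, 0.46 for Havcr2, 0.48 for Cd86, 0.64 for Cd80 and 0.35 for Cd40, above the lower of their ratios, but of 0.19 for Cd47, below both. The SDs were 0.39 and 0.44 for Icosl, 0.60 and 0.72 for Cd274, and 0.57 and 0.77 for Pdcd1lg2, whose levels alone had SDs of 0.22, 0.53 and 0.60. These SDs describe libraries whose ratios share their depth and cell content, and they were not tested. No spread over all genes is given beside them.

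**Figure D5:**
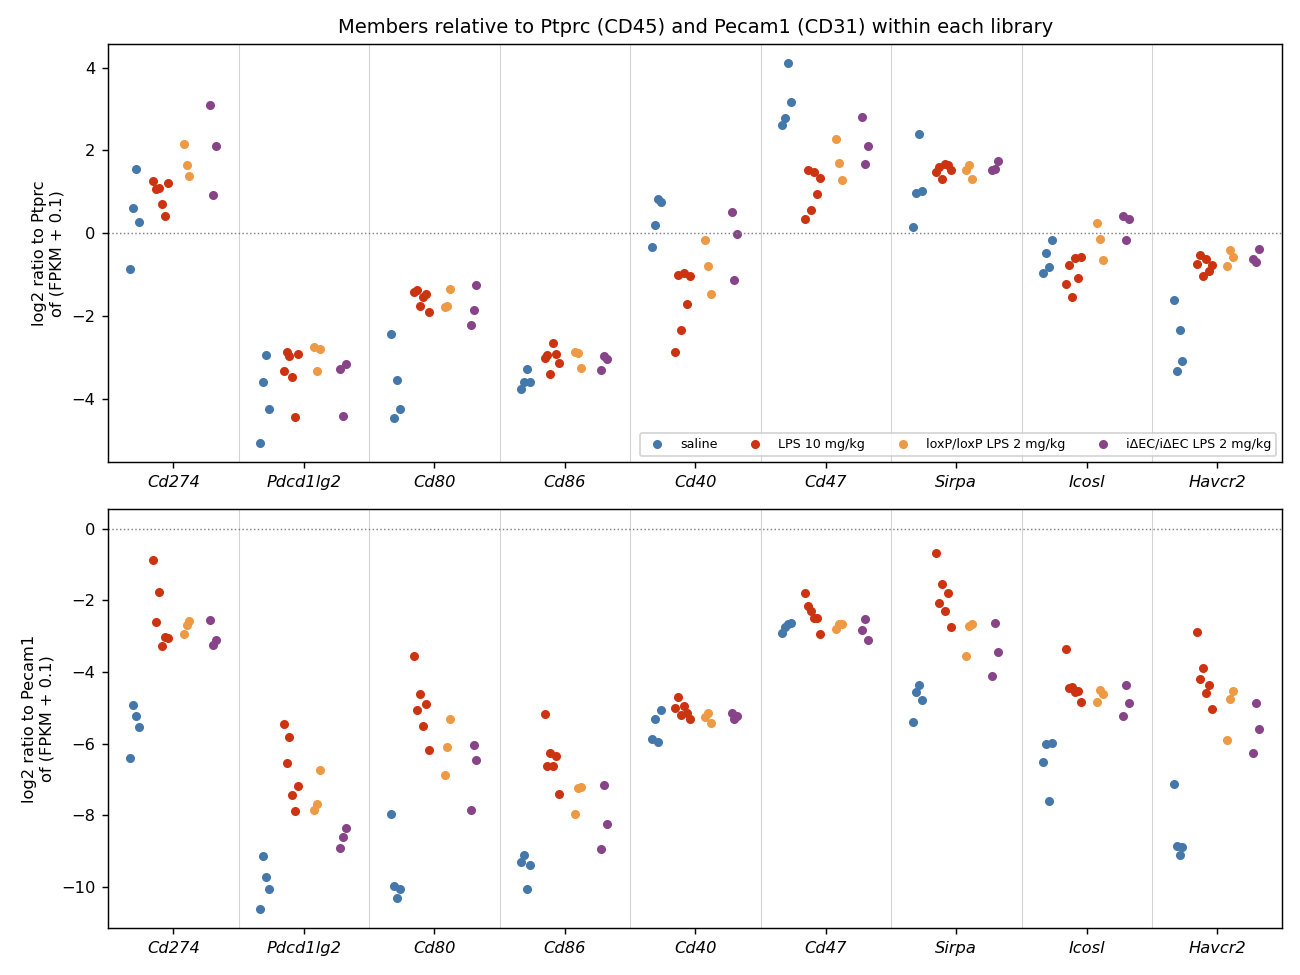
Log2 ratio of each gene to Ptprc (upper panel) and to Pecam1 (lower panel) within each library, on FPKM + 0.1, with a point per library. In the upper panel the Sirpa, Havcr2 and Cd86 points of mice given LPS lie close together, and in the lower panel those of Cd40 do.

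Among the genes whose proteins bind the ligands, 6 of 10 were tested. After LPS 2 of these 6 were higher by limma, where 11.9% of all genes were, namely Thbs1, a matrix protein that binds CD47 (25.2 ± 29.5 to 75.7 ± 43.7 FPKM, log2 fold change 1.90, adjusted p = 0.0152, groups overlapping), and Ceacam1, an adhesion molecule that binds TIM-3 (20.9 ± 1.14 to 61.0 ± 19.02 FPKM, log2 fold change 1.45, adjusted p = 0.000207). Lgals9, a galectin that binds TIM-3, had the highest mean, 95.6 ± 32.2 FPKM in saline and 130 ± 27.4 FPKM in LPS ECs (log2 fold change 0.47, limma adjusted p = 0.0878). Rgmb, a co-receptor that binds PD-L2, had 7.94 ± 1.30 FPKM in saline and 3.79 ± 0.612 FPKM in LPS ECs, with groups apart (limma adjusted p = 0.000347) but a log2 difference of -0.90, under the limit of 1 in size. Hmgb1, a nuclear protein that binds TIM-3, had 23.8 ± 3.26 and 18.6 ± 1.97 FPKM (log2 fold change -0.34, limma adjusted p = 0.0301). The receptors by which T cells bind the ligands were at low levels. Cd28, Icos, Pdcd1 and Cd40lg had a mean under 0.5 FPKM over the libraries and were not tested, and Ctla4 had 1.04 ± 1.59 FPKM in saline and 0.173 ± 0.0992 FPKM in LPS ECs.

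Of 34 further costimulatory and checkpoint genes 25 were tested, with 10 higher and 4 lower, where 11.9% of all genes tested were higher and 6.79% lower. Of the 10, Cd276, Tnfsf9 and Tnfrsf9 had a saline mean under 0.5 FPKM and entered the test through their LPS values. The median log2 fold change was 0.52 over the tested genes. Those with the largest rise were Lgals3, a galectin (13.8 to 186 FPKM, log2 fold change 3.86), Cd48, the ligand of CD244 (5.83 to 53.1, 3.08), its receptor Cd244a (1.48 to 17.1, 2.97), and Tnfrsf9, which encodes the costimulatory receptor 4-1BB (0.175 to 3.22, 1.80). Those lower were Btla, an inhibitory receptor of lymphocytes (14.4 to 4.24 FPKM, log2 fold change -1.35), Siglecg, a B cell lectin (7.45 to 2.18, -1.30), Nectin3, an adhesion molecule (8.09 to 2.96, -1.22), and Cd2, an adhesion molecule of T and NK cells (6.73 to 2.36, -1.17). The limma adjusted p of these 8 genes was at most 0.0367 (Btla). Also at high levels were Cd24a, a ligand of Siglec-G (58.7 to 183 FPKM, log2 fold change 1.61, limma adjusted p = 2.6e-05), and Cd200, an inhibitory ligand (96.8 ± 24.3 and 138 ± 30.1 FPKM), which did not pass the test. Cd70 and Tnfsf18 were at 0 in all LPS libraries.

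Of 22 genes that signal from or regulate the ligands, all tested, 7 were higher and 0 lower, where 11.9% and 6.79% of all genes were, and the median log2 fold change was 0.77. The 4 with the largest rise were Tyrobp, the adaptor DAP12 of myeloid receptors (57.3 to 852 FPKM, log2 fold change 4.30), Ptpn6, which encodes SHP-1 (13.01 to 188, 3.77), Traf1, an adaptor of TNF receptors (1.17 to 8.97, 2.15), and Nfkb2, a subunit of non-canonical NF-kB (16.2 to 70.2, 2.03), each with a limma adjusted p of at most 5.2e-05. Ifngr1, a chain of the interferon-γ receptor, had 83.5 ± 9.81 FPKM in saline and 166 ± 14.02 FPKM in LPS ECs (log2 fold change 0.99), with groups apart but a difference under the limit of 1.

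For each ligand the tested genes with the most similar profile were sought, by the smallest root mean square difference of log2(FPKM + 1), centred on its mean, over the 10 libraries of the first experiment. They were Sema4a (0.147) and Sla (0.152) for Cd80, Plek (0.130) and Lpcat2 (0.146) for Havcr2, Acp2 (0.137) and Gfi1b (0.199) for Sirpa, N4bp2l1 (0.0932) and Bri3bp (0.0947) for Cd86, and Olr1 (0.298) and Gm16120 (0.309) for Cd274. For Icosl they were Cnnm4 (0.227) and Gm3375 (0.234), and for Pdcd1lg2 Gm26626 (0.186) and Tnfrsf26 (0.235). For Cd40 they were Gsta3 (0.139) and Fam129b (0.140), and for Cd47 Pdhb (0.0589) and Atpaf2 (0.0626), both genes with a small range of their own. Among the members Cd80 and Havcr2 were nearest to each other (0.200).

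The second experiment asked how the ligands differ between iΔEC/iΔEC and loxP/loxP ECs after LPS. Fgfr1 itself measured 2.90, 2.91 and 2.59 FPKM in loxP/loxP 1 to 3 and 0.683, 1.41 and 1.15 FPKM in iΔEC/iΔEC 1 to 3, lower in each iΔEC/iΔEC library. None of the 9 ligands passed the test, and 0% of all 14944 genes tested were higher and 0% lower by limma, with 663 genes at an unadjusted p under 0.05. Limma-voom on read numbers also called 0 genes. With 3 against 3 libraries the exact permutation test cannot give a p under 0.1.

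Pdcd1lg2 was the member with no overlap between the genotypes. It measured 2.00, 1.59 and 3.28 FPKM (56, 43 and 98 reads) in loxP/loxP 1 to 3 and 0.960, 0.932 and 1.46 FPKM (26, 26 and 39 reads) in iΔEC/iΔEC 1 to 3. Groups were thus apart for 1 of the 9 members, and for 10.2% of all genes tested. In the fit without pairs the log2 difference was -0.61 (95% interval -1.13 to -0.10), with a limma p of 0.0262 unadjusted and 0.960 adjusted. The exact permutation p, also without pairs, was 0.1. With the same-numbered pairs as a block the limma p was 0.00637 unadjusted and 0.552 adjusted. Pdcd1lg2 differed by -0.94 with a pseudocount of 0.1, by -1.01 with limma-voom and by -0.77 to -0.41 when a library was left out, with no call. Its neighbour Cd274 measured 62.6, 53.5 and 60.7 FPKM in loxP/loxP and 88.1, 41.7 and 59.5 FPKM in iΔEC/iΔEC libraries, and the log2 difference was 0.03 (95% interval -0.59 to 0.66). The log2 ratio of Cd274 to Pdcd1lg2 was therefore 4.68 ± 0.45 in loxP/loxP and 5.66 ± 0.62 in iΔEC/iΔEC ECs, with groups apart, and this difference was not tested.

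The intervals of the other members also come from the fit without pairs. The log2 differences were -0.34 for Cd80 (-1.27 to 0.59), -0.23 for Cd86 (-0.80 to 0.34), -0.23 for Havcr2 (-0.96 to 0.50), -0.16 for Sirpa (-0.84 to 0.52), 0.09 for Icosl (-0.25 to 0.44), 0.16 for Cd47 (-0.17 to 0.48) and 0.29 for Cd40 (-0.17 to 0.74). In the same-numbered pairs Cd40 and Cd47 were higher and Pdcd1lg2 was lower in the iΔEC/iΔEC library of 3 of 3 pairs. So were 18% (higher) and 12.8% (lower) of all genes tested, and a share of 30.7% had the same sign in all pairs, beside 3 of the 9 members. With the pairs as a block the log2 differences of these genes had intervals of -0.10 to 0.67, -0.13 to 0.45 and -0.96 to -0.27, and limma adjusted p-values of 0.673, 0.743 and 0.552. The 3 widest intervals were those of Cd80, Havcr2 and Sirpa. In these genes iΔEC/iΔEC 1 stood low, since this library had the lowest value of the 6 in Cd80 (2.12 FPKM), Sirpa (29.6), Havcr2 (6.59), Cd86 (0.946) and Icosl (13.5), and the highest in Cd274 (88.1), Cd40 (14.4) and Cd47 (71.5). It also had the lowest Ptprc, 10.1 FPKM against 13.8 to 23.2 in the other 5 libraries, and the lowest summed macrophage markers, 160 FPKM against 222 to 365. Its summed endothelial markers were the highest, 3261 FPKM against 2029 to 3033. Without it the log2 differences of Cd80, Sirpa and Havcr2 were 0.03, 0.13 and 0.03, those of Cd86 and Icosl were -0.0044 and 0.24, and that of Cd274 was -0.24. The part of the cell content in these values was not tested.

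After 2 mg/kg LPS in both genotypes the ligands had levels between or near those of the first experiment, whose table was scaled separately. Cd274 had a mean of 58.9 ± 4.83 FPKM in loxP/loxP ECs and Icosl 15.5 ± 0.941 FPKM, beside 69.9 and 17.1 FPKM after 10 mg/kg. Sirpa had 50.4 ± 8.63, Havcr2 12.1 ± 3.82, Cd80 6.00 ± 2.69 and Cd86 2.12 ± 0.278 FPKM in loxP/loxP ECs. The loxP/loxP mean of every member lay between those of the saline and LPS groups. The order of levels was led by Cd47, Cd274 and Sirpa in both genotypes, with overlapping ranges. Dose, genotype, tamoxifen treatment and experiment differ together here, so they cannot be told apart. Of the marker lists, 0 genes were called between the genotypes, as were 0% of all genes, and the dendritic marker Cd209a was at 0 in all loxP/loxP libraries. The median log2 difference of the 11 lists ran from -0.84 (epithelial) to 0.22 (endothelial). Summed T and NK cell markers were 20.1 to 29.5 FPKM in loxP/loxP and 15.3 to 19.6 FPKM in iΔEC/iΔEC libraries, while the sums of the other lists overlapped. Its mean log2 levels overlapped, at 1.69 to 2.09 and 1.45 to 1.70. Of its 8 genes 2 were apart, as were 10.2% of all genes tested, and Cd8a had 2.42 and 2.39 FPKM. These list values were not tested.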

How the data were processed

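Total RNA of bead-isolated lung ECs was sequenced in bulk. The submitters' processing notes name HISAT2 (2.0.5), featureCounts (1.5.0-p3) and mm10. The authors deposited FPKM with gene lengths in a table per experiment. FPKM times length, divided by its smallest step, gave whole reads for 100% of values (tolerance 0.1), so limma-voom on these reads was an alternative. Scaling was kept as deposited. Of 54532 identifiers, 98.3% of those in GENCODE M21 had the same start and end. The median chi-square between replicates was at least 1.39.

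log2(FPKM + 1) was compared with limma 3.58.1 in R 4.3.3 (lmFit, eBayes with trend) on genes averaging 0.5 FPKM or more, within each experiment, with 95% intervals. The script was tested on simulated data. Exact permutation tests used scipy 1.17.1 in Python 3.11.15. Reads are not independent molecules, so read numbers cover counting error only. Calls follow the limits of the study, an adjusted p of 0.05 and a fold change of 1 read on the log2 scale.

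Same-numbered loxP/loxP and iΔEC/iΔEC libraries deviated together (correlations 0.248, 0.177 and 0.187) and the controls were littermates, so the numbers were taken as pairs. A fit with the number as a block was run beside the main fit, which leaves the pairs out. The members and lists were chosen with earlier results of these data known. Genes named from the lists are the 4 called with the largest change in each direction and the 2 with the highest mean, and for marker lists the most abundant gene and any at 0. The spread of ratios over libraries given LPS, Ctla4, Rgmb, Hmgb1, Cd276, Tnfsf9, Itgax, Pdgfrb, Notch3 and the untested partners were added after their values were seen. So were Cd8a and the untested dendritic markers. Alternatives were other pseudocounts, filters and scalings, voom, the block, no limit on the fold change and leaving out each library.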

Additional observations from a re-analysis of the deposited data

Results flagged for a closer look

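Within the saline group (n = 4) single libraries stood far from the other 3 in 3 ligands and 4 lists. Saline 1 had 1.96 FPKM of Cd80 against 0.212 to 0.244 in the others, and 3.56 FPKM of Havcr2 against 0.616 to 0.648. In the same library the summed neutrophil markers were 1382 FPKM against 71.4 to 309, Ptprc was 10.99 FPKM against 3.53 to 7.44, and the mean log2 level of the binding partners was 3.09 against 2.36 to 2.47. The part of these cells was not tested. Saline 3 had 1.95 FPKM of Icosl against 5.26 to 5.56, a mean log2 level of the T and NK cell markers of 0.451 against 1.16 to 1.28, and of the fibroblast markers of 2.21 against 2.70 to 2.77. Its B cell markers also had the lowest mean, 2.06 against 3.81 to 4.35. In saline 2 the macrophage markers had a mean of 1.62 against 1.80 to 1.83. Of 52 groups of values examined 7 held such a library, and chance marks about 1 in 20, or 2.6. Without saline 1 the log2 fold changes of Cd80 and Havcr2 in LPS over saline were 3.31 and 3.65, and without saline 3 that of Icosl was 1.49, all called by limma.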

How the results depend on the processing

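In LPS over saline the 7 ligands were called higher under each of 19 alternatives. The numbers of all genes called moved more. Scaling on the endothelial markers gave 5068 higher and 161 lower in place of 1768 and 1011, shifted the median of all genes to 0.67, and called all 9 ligands, with Cd40 at 1.07 and Cd47 at 1.05 beside this shift. Total reads gave 1378 and 1453 with a median of -0.15, and quantile normalization 1366 and 1326. No limit on the fold change gave 4399 and 3529, and lower genes numbered 1840 with a pseudocount of 0.1 and 2008 with voom. Cd47 changed sign with total reads (-0.00062) and with quantile normalization (-0.31). Leaving out a library gave 1641 to 1947 genes higher and 910 to 1107 lower.

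The ratio of Cd80 to Cd86 differed by 1.31 to 2.04 when a library was left out, and that of Cd47 to Sirpa by -2.65 to -2.40. With the replicate block, where 4 pairs cannot pass the test, they were 1.61 and -2.57 (adjusted exact p = 0.1875). The difference of Cd274 over Pdcd1lg2 was 1.09 with a pseudocount of 1.

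In iΔEC/iΔEC over loxP/loxP 0 genes were called under each of 15 alternatives. Signs turned for Cd274 (-0.033 with total reads, -0.011 with quantile normalization, -0.19 with endothelial scaling, and -0.24 to 0.30 without a library), and with endothelial scaling for Cd47 (-0.069) and Icosl (-0.12). Leaving out a library gave -0.55 to 0.035 for Cd80, -0.41 to 0.13 for Sirpa, -0.0084 to 0.24 for Icosl and -0.48 to 0.026 for Havcr2. The replicate block changed no call, with 1150 in place of 663 genes at an unadjusted p under 0.05. In the first experiment same-numbered libraries did not deviate together (correlations -0.209 to 0.097), and the block gave 1925 genes higher and 1063 lower. Low read numbers limit Pdcd1lg2, Cd80 and Cd86 in saline ECs.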
